A study of Homo sapiens with 12 samples.

Results

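The ZSWIM8 ubiquitin ligase, the Argonaute proteins and the TNRC6 proteins carry out and counteract microRNA silencing, and 10 of their genes were followed here: ZSWIM8, CUL3, ELOB and ELOC for the ligase, AGO1, AGO2, AGO3 and AGO4, and TNRC6A and TNRC6B. They were chosen by gene name from 67053 genes in the poly-A RNA tables. The level of a gene was summed over its annotated transcripts in FPKM, fragments scaled to transcript length and to the size of the library. A gene was tested where 2 or more libraries held an FPKM of 1 or more, which left 15183 genes and all 10 members.

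The RNA came from HEK293T, a human embryonic kidney line that carries the SV40 large T antigen, 48 h after transfection with 2 µg of plasmid. The plasmid encoded GFP with a BCL2L11 trigger in its 3′ untranslated region (BCL2L11 trigger), GFP with a TRIM9 trigger there (TRIM9 trigger), or the GFP control (GFP). Every group thus received a GFP plasmid, either with polyethylenimine or with lipofectamine, and the sources used here do not give which library had which reagent. The study asked whether a trigger lowers its matching miRNA (miR-221 and miR-222 for BCL2L11, miR-218 for TRIM9), and each group had 2 poly-A libraries, described as biological replicates. Whether these came from separate cultures beyond that word is not stated, so p-values measure the spread between these libraries. HEK293T is a single transformed line, and the trigger was expressed from a plasmid rather than from its own gene.

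A miRNA is loaded into an Argonaute protein, which holds it while it pairs with target mRNAs through its seed, and TNRC6 proteins bound to Argonaute bring in the enzymes that shorten the tail of the target and remove its cap. In target-directed miRNA degradation a target pairs with the miRNA beyond the seed, and the roles turn round. ZSWIM8, with Elongin B and Elongin C (ELOB, ELOC) and the scaffold CUL3, then ubiquitinates the Argonaute, which is destroyed and leaves the miRNA exposed to nucleases. The values below are levels of the mRNAs of this machinery, and its proteins were not measured.

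The miRNAs that the triggers address are shown because they are what the Argonautes hold when the ligase is engaged. They are given 5′ to 3′ from RefSeq with GRCh38.p14 coordinates, with the seed (bases 2 to 8) in capitals:
hsa-miR-221-3p: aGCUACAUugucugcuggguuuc
hsa-miR-222-3p: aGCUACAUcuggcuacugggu
hsa-miR-218-5p: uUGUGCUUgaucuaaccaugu
MiR-221-3p (X:45746180-45746202, minus strand) and miR-222-3p (X:45747036-45747056, minus strand) share the seed GCUACAU and differ after it. MiR-218-5p has the seed UGUGCUU and is encoded at 4:20528299-20528319 on the plus strand and at 5:168768211-168768231 on the minus strand.

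The trigger genes matched the labels. BCL2L11 was at 11484 and 11275 FPKM in the libraries with its trigger, at 3.95 and 6.32 FPKM in TRIM9 trigger libraries and at 5.40 and 6.15 FPKM in GFP libraries. TRIM9 was at 5297 and 3948 FPKM in the libraries with its trigger, at 1.21 and 2.30 FPKM in BCL2L11 trigger libraries and at 1.74 and 2.92 FPKM in GFP libraries. Of 8 HEK293 marker genes 7 were at 1 FPKM or more in all 6 libraries, PAX2 being the exception at 0.09 to 0.61 FPKM. The leukocyte gene PTPRC, the T cell gene CD3E and the haemoglobin gene HBB were at 0, the 3 endothelial genes reached at most 0.09 FPKM, and HBA1 was at 2.35 to 7.45 FPKM and CD14 at 0.65 to 2.89 FPKM. Of 4 fibroblast genes COL1A1 was at 1.27 to 4.02 FPKM, COL1A2 at 0 to 1.56 FPKM and the other two at most at 0.31 FPKM, and the hepatocyte genes ALB, APOA1 and TTR reached 2.06, 1.13 and 0.13 FPKM. What part RNA of such cells has in any result was not tested. One FPKM stood for a mean depth of 4.11 to 5.34 reads per base, and 83584 to 110534 of 250719 transcripts were above 0. Total counts are not in these tables, so no counting interval is given. None of the 15 pairs of libraries held identical values (0 of 15).

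The 10 genes spanned a wide range of levels, from the abundant Elongins to the scarce AGO3. Averaged over the 6 libraries (mean ± SD, n = 6), ELOB was at 198 ± 72.8 FPKM and ELOC at 55.1 ± 11.6 FPKM. CUL3 was at 16.5 ± 3.91 FPKM and ZSWIM8, the subunit that recognises the Argonaute, at 9.66 ± 1.77 FPKM. TNRC6A led the silencing genes with 8.04 ± 3.47 FPKM, and AGO2 followed with 5.95 ± 2.44 FPKM. The other 4 lay lower, TNRC6B at 3.66 ± 1.78, AGO1 at 3.24 ± 1.01, AGO4 at 2.31 ± 0.98 and AGO3 at 2.19 ± 0.64 FPKM. These levels are per length and pool libraries of all groups and both replicates, so they describe no single condition. Their SDs include a difference between replicates 2 and 1, with means of 132 and 263 FPKM for ELOB, 11.1 and 5.01 FPKM for TNRC6A and 7.93 and 3.97 FPKM for AGO2.

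**Figure D1:**
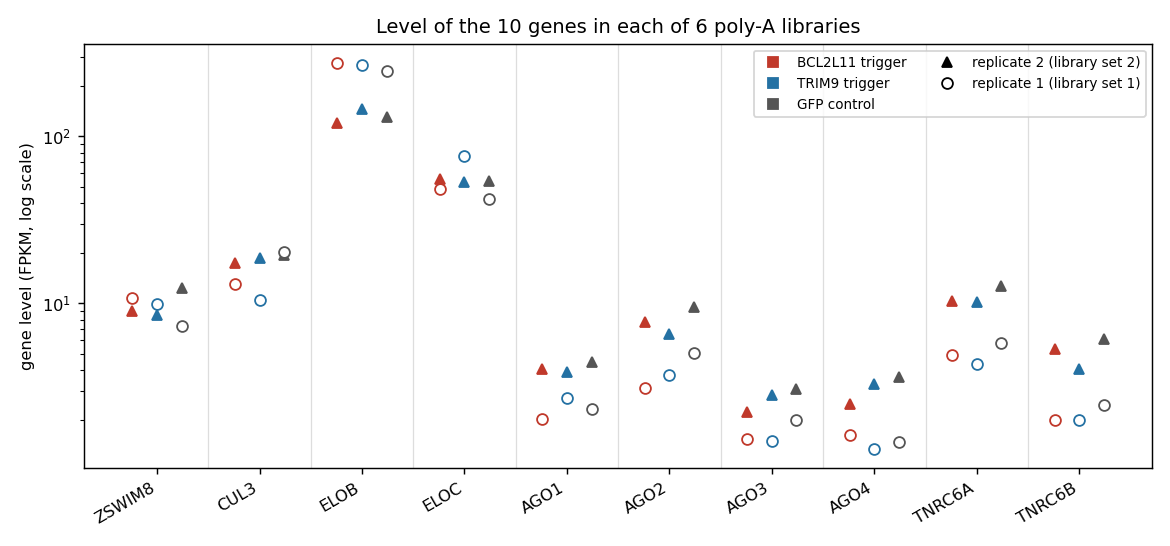
Level of each of the 10 genes (FPKM, log axis) in each of the 6 poly-A libraries, coloured by group, with filled triangles for replicate 2 and open circles for replicate 1. ELOB and ELOC lie above the other 8 genes in every library, and for TNRC6A, TNRC6B and AGO1 to AGO4 all triangles lie above all circles.

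Neighbours in this order were not all separable. ELOB exceeded ELOC, and ELOC exceeded CUL3, with no overlap of their ranges over the 6 libraries. CUL3 was above ZSWIM8 within each library (6 of 6), although the ranges overlapped. ZSWIM8 exceeded TNRC6A in 3 of 6 libraries, TNRC6B exceeded AGO1 in 4 of 6 and AGO4 exceeded AGO3 in 4 of 6, so these pairs had no order common to all libraries. ZSWIM8 was above TNRC6A in every replicate 1 library and below it in every replicate 2 library. TNRC6B over AGO1 and AGO4 over AGO3 held in every replicate 2 library, and replicate 1 was mixed. TNRC6A over AGO2, AGO2 over TNRC6B and AGO1 over AGO4 held in 6 of 6 libraries with overlapping ranges.

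Among the trigger comparisons the result was the same for every gene: none of the 10 passed the test in any of them. With limma on log2 of FPKM + 1 and Benjamini-Hochberg adjustment over all 15183 genes at a threshold of 0.05, 0 of 10 passed between BCL2L11 trigger and GFP libraries, where 0.00659% of all genes tested passed. Between TRIM9 trigger and GFP libraries it was again 0 of 10, against 0.00659% of all genes (1 gene, and 6 with the library set as a block, where still 0 of 10 members passed). With both triggers set against GFP it was 0 of 10, against 0.0132%, and between the BCL2L11 and the TRIM9 trigger 0 of 10, against 0.0132%. In this fit on group alone 0 of 10 also had an unadjusted p below 0.05 in each comparison, against 0.547%, 1.15%, 0.83% and 0.645% of all genes in the same order. With the library set as a block, 0, 0, 1 (AGO2) and 0 of 10 had an unadjusted p below 0.05, against 3.58%, 6.31%, 5.95% and 3.01% of all genes. Genes that passed were 1, 1, 2 and 2 in that order, and they were BCL2L11 and TRIM9 themselves. In bulk RNA, fewer cells that express a gene and less RNA per cell cannot be told apart.

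ZSWIM8 (hg38, 10:73785606-73801797, plus strand, 23 annotated transcripts) supplies the substrate recognition of the ligase. It was at 10.8 and 9.0 FPKM in BCL2L11 trigger libraries, 9.98 and 8.56 FPKM in TRIM9 trigger libraries, and 7.29 and 12.3 FPKM in GFP libraries. The 2 GFP libraries were the lowest and the highest of the 6 and enclosed all 4 trigger libraries. The log2 fold change over GFP was 0.05 (SE 0.34, 95% interval -0.75 to 0.85) for the BCL2L11 trigger and -0.04 (SE 0.34, interval -0.84 to 0.77) for the TRIM9 trigger, with a limma adjusted p of 1 for each. Between the triggers the difference was 0.09 (interval -0.72 to 0.89). In this fit, which pools the spread of all 3 groups, both intervals over GFP exclude a change of 1 log2 unit in either direction. A smaller one is not excluded, and the size of change that would have passed was not determined. With only the groups compared the SE was 0.37 for the BCL2L11 trigger and 0.41 for the TRIM9 trigger, so the exclusion is given for the pooled fit only.

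CUL3 (2:224470150-224585397, minus strand) is the scaffold on which the ligase is built. It was at 13.0 and 17.4 FPKM in BCL2L11 trigger libraries, 10.5 and 18.7 FPKM in TRIM9 trigger libraries, and 20.2 and 19.4 FPKM in GFP libraries. Both GFP libraries lay above all 4 trigger libraries, with no overlap, and CUL3 was the only member so ordered. The log2 fold change over GFP was -0.37 (SE 0.36, interval -1.21 to 0.47) for the BCL2L11 trigger, -0.47 (SE 0.36, interval -1.31 to 0.37) for the TRIM9 trigger and -0.42 (SE 0.31, interval -1.15 to 0.30) for both, each with a limma adjusted p of 1. Lower libraries without overlap were found for 12.3%, 11.2% and 5.77% of all genes in these comparisons, so the 1 of 10 found here is close to what all genes show. Higher trigger libraries without overlap were found for no member (0 of 10), against 4.44%, 6.66% and 1.76% of all genes, and between the BCL2L11 and the TRIM9 trigger every member overlapped, where 5.72% of all genes were higher and 8.44% lower without overlap. Most of the CUL3 difference came from replicate 1, at -0.60 and -0.89 log2, while in replicate 2 it was -0.15 and -0.06 log2 for the BCL2L11 and TRIM9 triggers. In GFP replicate 1 a 9-exon form of 1428 nt (ENST00000617432.4) was at 11.2 FPKM, 55.3% of the CUL3 level, and at 0.12 to 3.24 FPKM elsewhere. The leading 16-exon ENST00000264414.9 was at 4.75 FPKM in GFP replicate 1, below the 9.05 (BCL2L11) and 5.18 FPKM (TRIM9) of replicate 1 trigger libraries. The part of the short form in the CUL3 difference was not tested. With the TRIM9 trigger the log2 fold change of CUL3 was -0.08 without TRIM9 trigger replicate 1 and -0.86 without its replicate 2.

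Elongin B and Elongin C join the recognition subunit to the cullin. ELOB (16:2771414-2777280, minus strand) was at 274 and 120 FPKM in BCL2L11 trigger libraries, 268 and 146 FPKM in TRIM9 trigger libraries, and 247 and 131 FPKM in GFP libraries. Within every group replicate 1 was far above replicate 2, and the groups overlapped. ELOC (8:73939169-73972287, minus strand) was at 48.5 and 55.6 FPKM in BCL2L11 trigger libraries, 76.6 and 53.6 FPKM in TRIM9 trigger libraries, and 42.3 and 53.9 FPKM in GFP libraries. One TRIM9 trigger library stood above the other 5, and the rest overlapped. The log2 fold changes over GFP were 0.02 (SE 0.55) and 0.14 (SE 0.55) for ELOB and 0.12 (SE 0.32) and 0.42 (SE 0.32) for ELOC, for the BCL2L11 and the TRIM9 trigger. With the TRIM9 trigger ELOC was at 0.16 without TRIM9 trigger replicate 1 and at 0.67 without its replicate 2. The 3′ end of ELOB overlaps SRRM2 on the other strand over 1125 nt, SRRM2 was at 64.6 to 99.7 FPKM, and strandedness of the libraries is not given. Of 38 listed pseudogene loci of ELOB and ELOC, 36 were at 0 in all libraries and the highest value was 1.21 FPKM.

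The Argonautes bind the miRNA, and AGO2 is known for slicing fully paired targets. AGO2 (8:140520156-140635633, minus strand) was at 3.11 and 7.74 FPKM in BCL2L11 trigger libraries, 3.75 and 6.54 FPKM in TRIM9 trigger libraries, and 5.04 and 9.49 FPKM in GFP libraries. Replicate 2 was the higher in every group, and groups overlapped. Its log2 fold change over GFP was -0.41 (SE 0.49, interval -1.57 to 0.75) for the BCL2L11 trigger and -0.41 (SE 0.49, interval -1.57 to 0.74) for the TRIM9 trigger. AGO2 was below GFP in both replicates with each trigger, by -0.56 and -0.26 log2 with the BCL2L11 trigger and -0.35 and -0.48 log2 with the TRIM9 trigger. That order was found for 6 of 10 members with each trigger, AGO2 included, against 40.2% (BCL2L11) and 30.5% (TRIM9) of all genes tested. CUL3, AGO3, TNRC6A and TNRC6B also had it with each trigger. With the library set as a block the value for both triggers was -0.41 (SE 0.16, interval -0.80 to -0.02), with an unadjusted p of 0.0418 in limma, and it did not pass (adjusted p 0.719). In the fit on group alone the size depended on single libraries. Without GFP replicate 2 the log2 fold change was -0.013 for the BCL2L11 trigger and -0.014 for the TRIM9 trigger. Without GFP replicate 1 it was -0.81 and -0.81, and without BCL2L11 trigger replicate 1 it was 0.13 for that trigger. Leaving out 1 library makes the replicates uneven between the groups, and replicate 2 was the higher in AGO2. The triggers differed from each other in AGO2 by 0.00 (interval -1.15 to 1.16).

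AGO1, AGO3 and AGO4 lie side by side on chromosome 1, AGO4 at 1:35808016-35857890, AGO1 at 1:35869808-35930532 and AGO3 at 1:35930718-36072500, all on the plus strand. AGO1 was at 2.02 and 4.02 FPKM in BCL2L11 trigger libraries, 2.73 and 3.88 FPKM in TRIM9 trigger libraries, and 2.34 and 4.47 FPKM in GFP libraries. AGO3 was at 1.55 and 2.23 FPKM in BCL2L11 trigger libraries, 1.49 and 2.82 FPKM in TRIM9 trigger libraries, and 2.00 and 3.05 FPKM in GFP libraries. AGO4 was at 1.62 and 2.48 FPKM in BCL2L11 trigger libraries, 1.35 and 3.31 FPKM in TRIM9 trigger libraries, and 1.48 and 3.63 FPKM in GFP libraries. In all 3 genes the second replicate was the higher in every group, and the groups overlapped. Their log2 fold changes over GFP lay between -0.28 (AGO3) and -0.13 (AGO1) for the BCL2L11 trigger and between -0.17 (AGO3) and 0.00 (AGO1) for the TRIM9 trigger, with SEs of 0.35 to 0.44. Summed over its transcripts, read coverage was 25 to 224 kb per library for AGO3 and 48 to 104 kb for AGO4.

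TNRC6A and TNRC6B, also called GW182 proteins, are the platform for deadenylation. TNRC6A (16:24610209-24827632, plus strand) was at 4.90 and 10.3 FPKM in BCL2L11 trigger libraries, 4.34 and 10.2 FPKM in TRIM9 trigger libraries, and 5.79 and 12.7 FPKM in GFP libraries. TNRC6B (22:40044817-40335808, plus strand) was at 2.00 and 5.33 FPKM in BCL2L11 trigger libraries, 2.01 and 4.06 FPKM in TRIM9 trigger libraries, and 2.47 and 6.10 FPKM in GFP libraries. In both genes the difference between replicates within a group was far larger than that between groups, which overlapped. The log2 fold changes over GFP were -0.24 (SE 0.54) and -0.32 (SE 0.54) for TNRC6A and -0.19 (SE 0.53) and -0.35 (SE 0.53) for TNRC6B, for the BCL2L11 and the TRIM9 trigger.

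**Figure D2:**
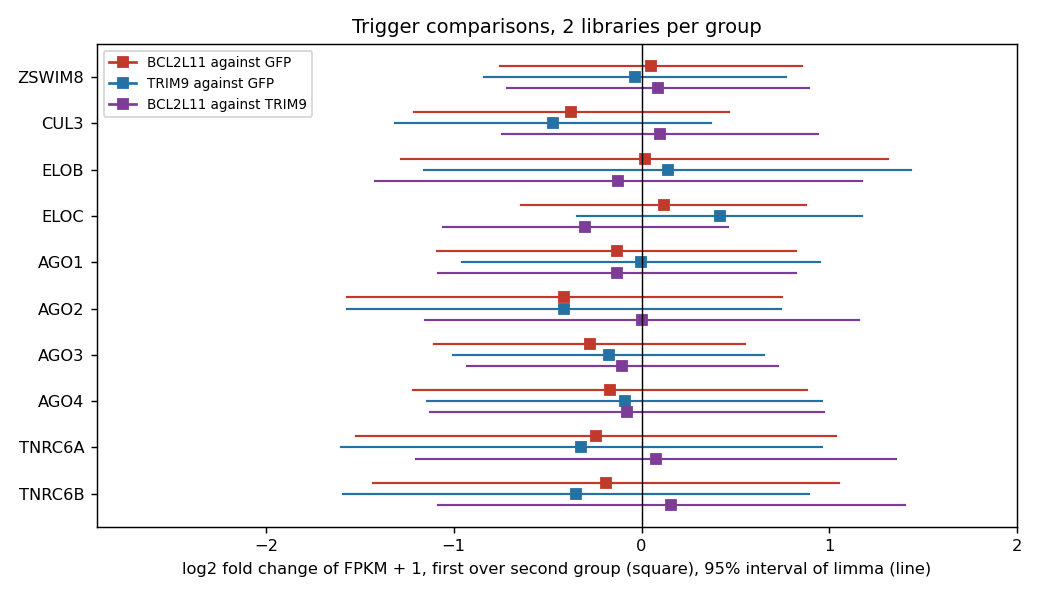
Log2 fold change of FPKM + 1 (squares) with the 95% interval of limma (lines) for each of the 10 genes in the trigger comparisons, 2 libraries per group. The fit is on group alone, so its spread includes the difference between replicates. Every interval includes 0, and the widest belong to ELOB, TNRC6A and TNRC6B. With the library set as a block (not drawn) the SEs of these genes were 0.175, 0.159 and 0.177 in each comparison drawn, and every interval still included 0.

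Most estimates over GFP lay below 0, as did those of most genes. With the BCL2L11 trigger 7 of 10 members were below 0, against 62.7% of all genes tested, and with the TRIM9 trigger 8 of 10, against 55.8%. With both triggers it was 7 of 10, against 60.1%. The median log2 fold change of the members was -0.18 for the BCL2L11 trigger and -0.13 for the TRIM9 trigger, beside -0.08 and -0.04 over all genes. Genes with long transcripts lay lower with the BCL2L11 trigger. Their medians were -0.13, -0.15 and -0.18 at 4000 to 7999, 8000 to 15999 and 16000 nt or more, beside 0.01 under 1000 nt. With the TRIM9 trigger these medians were -0.07, -0.09 and -0.02, beside 0.01. All members but ELOB and ELOC have a longest transcript of 4000 nt or more. In the main fit all 6 AGO and TNRC6 genes were below 0 in each comparison with GFP. Under other settings that left out no replicate, only AGO1 rose above 0. With the TRIM9 trigger it was 0.053 with TMM scaling, 0.008 with a pseudocount of 0.1 and 0.060 with a length trend removed. Removing that trend also gave AGO1 0.012 with the BCL2L11 trigger and 0.036 with both. With 1 library left out, which makes the replicates uneven between the groups, other genes rose above 0 too. For the BCL2L11 trigger AGO2, AGO4, TNRC6A and TNRC6B reached 0.13, 0.28, 0.27 and 0.35. For the TRIM9 trigger AGO3, AGO4, TNRC6A and TNRC6B reached 0.14, 0.36, 0.21 and 0.17. Of the 6 AGO and TNRC6 genes 4 (AGO2, AGO3, TNRC6A and TNRC6B) were below 0 within both replicates with the triggers together. The share of all genes below 0 in both replicates was 35.3% in that comparison. Both comparisons share the GFP libraries, so the second does not repeat the first. Between the BCL2L11 and the TRIM9 trigger 5 of 10 were below 0, against 58.6% of all genes, with a median of -0.04 beside -0.04.

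Far more genes passed between the 2 replicates of the groups than in the trigger comparisons, but the fits were not alike. The fit of replicates set 3 libraries against 3 with group as a term. A trigger was compared with GFP as 2 libraries against 2, on group alone. The median SE of the members was 0.148 between the replicates and 0.424 for the BCL2L11 trigger over GFP. The libraries with title numbers 1 to 3 are replicate 1 of the 3 groups and are called library set 1 here, and those with numbers 4 to 6 are replicate 2 and are called set 2. The labels name no batch and no pairing. In a limma fit with group and set as terms, 6 of 10 members passed between set 2 and set 1, against 32.9% of all 15183 genes (22.5% higher in set 2 and 10.3% lower). The 5 that were higher in set 2 were TNRC6A, TNRC6B, AGO2, AGO4 and AGO1, and ELOB was the 1 that was lower. Which transfection reagent each library had is not given, so reagent and set cannot be told apart.

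TNRC6A averaged 11.1 ± 1.43 FPKM in set 2 and 5.01 ± 0.73 FPKM in set 1 (SD, n = 3 each), a log2 difference of 1.01 (SE 0.13, limma adjusted p 0.0111). TNRC6B averaged 5.17 ± 1.03 FPKM in set 2 and 2.16 ± 0.27 FPKM in set 1, a log2 difference of 0.95 (SE 0.14, limma adjusted p 0.0117). In both genes all 3 libraries of set 2 lay above all 3 of set 1. AGO2 averaged 7.93 ± 1.48 FPKM in set 2 and 3.97 ± 0.99 FPKM in set 1 (log2 0.85, SE 0.15, limma adjusted p 0.0140). AGO4 averaged 3.14 ± 0.59 FPKM in set 2 and 1.48 ± 0.13 FPKM in set 1 (log2 0.73, SE 0.16, limma adjusted p 0.0239). AGO1 averaged 4.13 ± 0.30 FPKM in set 2 and 2.37 ± 0.35 FPKM in set 1 (log2 0.61, SE 0.15, limma adjusted p 0.0284). These 3 Argonaute genes were likewise higher in every library of set 2, and within each of the 3 groups.

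AGO3 had the same direction and no overlap, at 2.70 ± 0.42 FPKM in set 2 and 1.68 ± 0.28 FPKM in set 1, but did not pass (log2 0.46, SE 0.14, limma adjusted p 0.0546). Higher libraries without overlap were found for 6 of 10 members, against 31.7% of all genes. ELOB went the other way, at 132 ± 13.0 FPKM in set 2 and 263 ± 14.6 FPKM in set 1 (log2 -0.99, SE 0.14, limma adjusted p 0.0115), and lower libraries without overlap were found for 1 of 10 members, against 18.2% of all genes. CUL3 (log2 0.37, adjusted p 0.182), ZSWIM8 (0.08, adjusted p 0.8) and ELOC (0.01, adjusted p 0.978) did not pass in limma. For ZSWIM8 the set difference was 0.68 log2 within GFP and -0.24 and -0.20 within the BCL2L11 and TRIM9 triggers.

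**Figure D3:**
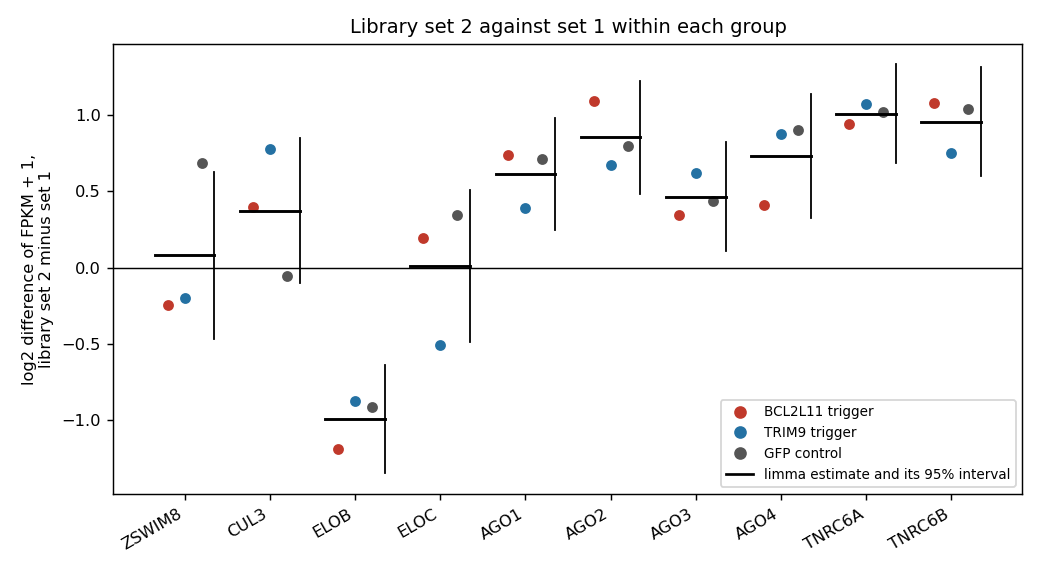
Log2 difference of FPKM + 1, set 2 minus set 1, within each group (points) for each of the 10 genes, with the limma estimate and its 95% interval (lines). TNRC6A lies between 0.94 and 1.07 in the 3 groups and ELOB between -1.19 and -0.88, while ZSWIM8 and ELOC have points on both sides of 0.

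These calls rested on few libraries and on the settings. Leaving out either BCL2L11 trigger library, AGO1 and AGO2 no longer passed (adjusted p 0.21 and 0.0961 or more in limma), and leaving out either TRIM9 trigger library, AGO1 and AGO4 no longer passed (0.068 and 0.1 or more). Leaving out either GFP library, CUL3 and AGO3 passed as well (log2 0.59 and 0.48), for 8 of 10 members. With no filter on low values the test ran over more genes and no member passed (lowest adjusted p 0.068).

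The set difference ran with transcript length over the whole transcriptome. Genes were binned by the longest annotated transcript, and the median log2 difference of set 2 over set 1 was -0.35 under 1000 nt (1666 genes), -0.33 at 1000 to 1999 nt and -0.02 at 2000 to 3999 nt. It was 0.35 at 4000 to 7999 nt (4777 genes), 0.60 at 8000 to 15999 nt (1054 genes) and 0.53 at 16000 nt or more (65 genes). In the bin of 8000 to 15999 nt 55.4% of genes passed as higher in set 2 and 0.664% as lower, and under 1000 nt 8.82% passed as higher and 25.2% as lower. The genes followed here are spread over this scale. ELOB has a longest transcript of 997 nt, and AGO1, AGO2, AGO3, TNRC6A and TNRC6B have 13712, 14595, 19660, 8491 and 18280 nt. ELOC has 2780 nt, ZSWIM8 6062 nt, CUL3 6756 nt and AGO4 7272 nt.

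Set beside genes of their own length, the 6 members that passed, AGO3 and CUL3 lay nearer to the median of their bin than to 0, while ZSWIM8 and ELOC lay further from it. AGO3 lay -0.06 log2 from the median of its bin, AGO1 0.01, CUL3 0.02 and ELOC 0.03. TNRC6B was 0.43 above the median of its bin, TNRC6A 0.40, AGO4 0.37 and AGO2 0.25, and these 4 exceeded 80.0%, 84.4%, 76.7% and 73.2% of the genes of their bin. ELOB was 0.64 below its bin, and 10.8% of the genes there were lower. ZSWIM8 was 0.27 below its bin, above 30.9% of the genes there. With a smooth trend of length removed from each library, a setting chosen after the data were seen, 1 of 10 members passed between the sets in limma, ELOB (log2 -0.63 ± 0.14 (SE), adjusted p 0.0371), and TNRC6A did not (log2 0.46, SE 0.14, adjusted p 0.0617). In that setting AGO2, AGO4 and TNRC6B were at 0.21, 0.23 and 0.29 log2, and AGO1 was at -0.02. What made the sets differ by length was not tested.

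**Figure D4:**
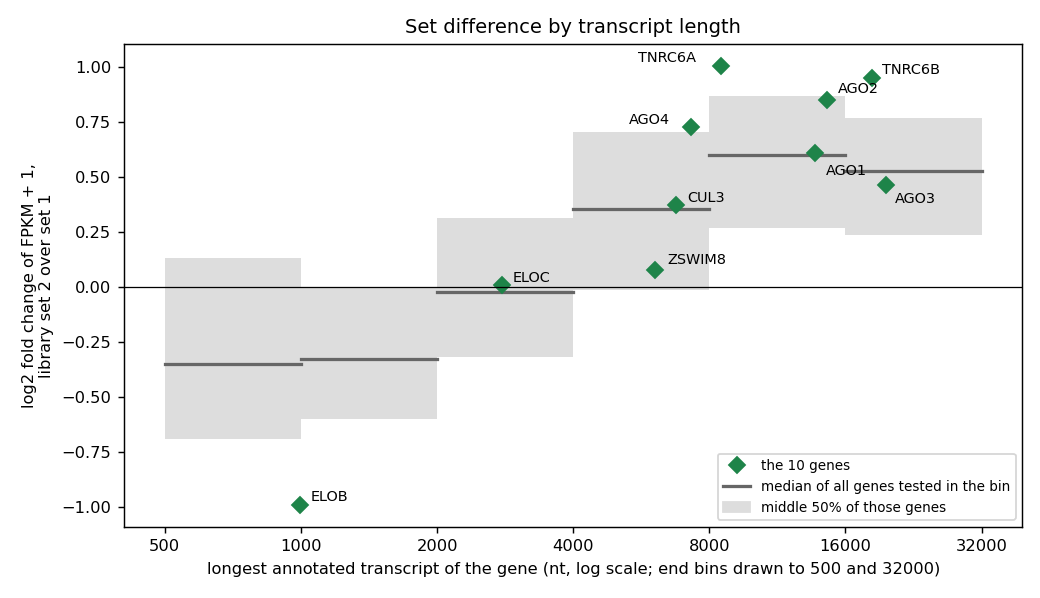
Log2 difference of FPKM + 1 of set 2 over set 1 against the longest annotated transcript of a gene (nt, log axis). The grey line and band are the median and the middle 50% of all genes tested in each length bin, and the diamonds are the 10 genes, of which ELOB lies lowest at -0.99 and TNRC6A highest at 1.01.

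Shares within a family need no scaling between libraries. AGO2 held 37.4 to 47.0% of the summed FPKM of the 4 AGO genes, AGO1 21.6 to 29.3%, AGO3 13.6 to 18.7% and AGO4 13.6 to 20.0%. By library the AGO2 share was 37.4% and 47.0% with the BCL2L11 trigger, 40.2% and 39.5% with the TRIM9 trigger, and 46.4% and 46.0% in GFP. AGO2 thus led in all 6 libraries, and the BCL2L11 trigger libraries enclosed all others. The AGO sum was 17.9 ± 2.38 FPKM in set 2 and 9.49 ± 1.29 FPKM in set 1, a ratio of 1.88.

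TNRC6C, the remaining member of its family, was added for the shares of the TNRC6 genes and was at 1.49 to 3.65 FPKM. TNRC6A held 54.7 to 60.9% of the TNRC6 sum, TNRC6B 22.7 to 28.3% and TNRC6C 14.8 to 21.7%. The sum was 19.3 ± 2.90 FPKM in set 2 and 8.99 ± 1.25 FPKM in set 1, a ratio of 2.15, and TNRC6A was the largest part in every library. The TNRC6C share was 17.0%, 14.8% and 16.2% in the BCL2L11 trigger, TRIM9 trigger and GFP libraries of set 2 and 21.7%, 19.1% and 20.0% in those of set 1, without overlap, and was not tested. The Elongins did not keep their proportion: ELOB over ELOC was 2.43 ± 0.28 in set 2 and 4.99 ± 1.30 in set 1.

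**Figure D5:**
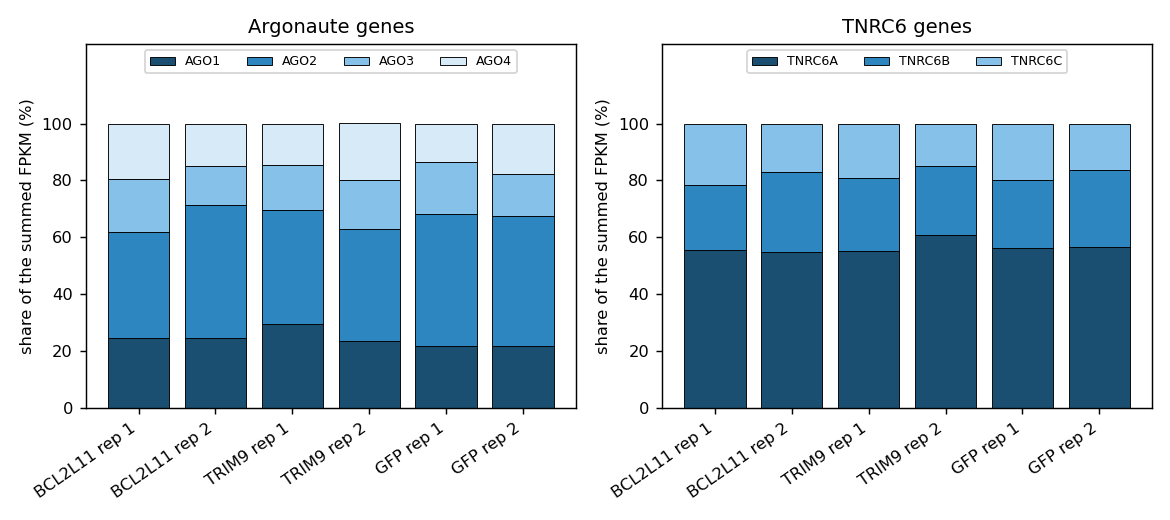
Share of the summed FPKM (%) held by each AGO gene and by each TNRC6 gene in each of the 6 poly-A libraries, as stacked bars. AGO2 (37.4 to 47.0%) and TNRC6A (54.7 to 60.9%) are the largest parts in every library.

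The annotated transcripts of these genes were estimated with less certainty than the gene sums, since reads shared between isoforms are divided by the assembler. Of 106 listed transcripts of the 10 genes 32 passed the filter, and none passed a limma fit over 33099 transcripts in any trigger comparison (0 of 32 each). Among all transcripts 0%, 0.00302%, 0% and 0.00302% passed, for the BCL2L11 trigger, the TRIM9 trigger and both over GFP and for the BCL2L11 over the TRIM9 trigger. At an unadjusted p below 0.05 it was 3, 2, 3 and 2 of 32 in that order, against 2.72%, 2.97%, 3.10% and 2.16% of all transcripts. The lowest p was that of an ELOC transcript (ENST00000519487.5) in TRIM9 trigger over GFP libraries, with a log2 fold change of 2.93 (SE 0.56) and a limma adjusted p of 1. Between the sets no transcript of any gene passed (0%), and 13 of 32 member transcripts had an unadjusted p below 0.05, against 23.2% of all transcripts.

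A full-length transcript carried most of the signal in some genes and not in others. For AGO2 the 19-exon transcript ENST00000220592.10 of 14595 nt held 80.0 to 97.0% of the gene level, and for AGO4 the 18-exon ENST00000373210.4 held 76.1 to 100%. TNRC6A had 2 main forms: ENST00000315183.11 of 24 exons was at 5.98, 3.68 and 6.20 FPKM in the BCL2L11 trigger, TRIM9 trigger and GFP libraries of set 2 and at 0 in all 3 libraries of set 1. The 25-exon ENST00000395799.8 held 16.9% of TNRC6A in set 2 and 74.7% in set 1. For CUL3 the 16-exon ENST00000264414.9 held 77.5% in set 2 and 47.5% in set 1, and a 9-exon form of 1428 nt (ENST00000617432.4) was at 11.2 FPKM in GFP replicate 1 and at 0.12 to 3.24 FPKM in the other 5 libraries. In that library the short form made up 55.3% of the CUL3 level. ZSWIM8 was split over many forms, and its leading transcript, the 26-exon ENST00000605216.5, held 22.2% on average and was at 0 in GFP replicate 1. AGO1 and AGO3 were also split, their leading transcripts ENST00000373204.6 and ENST00000373191.9 holding 57.7% and 58.7% on average. The leading AGO3 form of 19660 nt was at 0 in BCL2L11 trigger replicate 1. In that library a form of 3599 nt (ENST00000634486.1) held 83.6% of the AGO3 level. What part this had in the AGO3 fold change was not tested.

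Partners of the ligase and effectors of the TNRC6 proteins were followed as 5 lists, described by counts and medians only. In the 4 trigger comparisons no gene of any list passed or had an unadjusted p below 0.05. Between the sets, 6 of 17 genes of the other cullin-RING machinery were higher in set 2 and 1 was lower, with CUL5, the cullin of another Elongin BC ligase class, at 17.3 FPKM in set 2 and 7.32 FPKM in set 1 (log2 1.14) and the RING subunit RBX1 at 49.5 FPKM in set 2 and 101 FPKM in set 1 (log2 -0.99). The exchange factor CAND1 was at 0.98 log2. Of other CUL3 adaptors, 7 of 17 were higher and 0 lower, among them KLHL13 (log2 1.10). These shares stand beside 22.5% of all genes higher and 10.3% lower. The median longest transcript of the CUL3 adaptors was 4194 nt, in the length bin where 37.9% of genes passed as higher and 2.24% as lower. For the cullin-RING machinery it was 3247 nt, in the bin where 14.0% passed as higher and 8.87% as lower.

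Of other partners of Elongin B and C, 12 of 25 tested were higher in set 2 and 0 lower, beside 22.5% and 10.3% of all genes, such as the SOCS-box gene SOCS4 (13.7 FPKM in set 2 and 4.96 FPKM in set 1, log2 1.31) and the degron reader FEM1B (log2 1.06). ELOA, the transcription elongation partner, was at 20.2 and 20.7 FPKM in BCL2L11 trigger libraries, 19.0 and 20.5 FPKM in TRIM9 trigger libraries and 24.9 and 27.6 FPKM in GFP libraries, without passing (log2 -0.37 for both triggers, SE 0.24, limma adjusted p 1). The GFP libraries of ELOA lay above all trigger libraries, an order found for 5.77% of all genes. LRR1 of the same list had it too, at 34.52 and 28.19 FPKM in GFP and 21.43 to 28.16 FPKM in trigger libraries. So did ZSWIM3 of the ZSWIM genes and DCP1B and CNOT8 of the silencing effectors. The genes so ordered were not counted over the lists. Of 6 other ZSWIM genes tested 2 were higher in set 2 and 1 lower. ZSWIM6 was at 8.43 FPKM in set 2 and 2.87 FPKM in set 1 (log2 1.28), and ZSWIM7 at 14.0 FPKM in set 2 and 21.7 FPKM in set 1 (log2 -0.55).

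Of the silencing effectors that TNRC6 proteins recruit, 14 of 27 tested were higher in set 2 and 0 lower, beside 22.5% and 10.3% of all genes. The deadenylase CNOT6L was at 7.25 FPKM in set 2 and 2.07 FPKM in set 1 (log2 1.42), the scaffold CNOT1 at 57.7 FPKM in set 2 and 30.4 FPKM in set 1 (log2 0.91), and the exonuclease XRN1 at 7.16 FPKM in set 2 and 2.50 FPKM in set 1 (log2 1.23). The median longest transcript was 4753 nt in this list and 4926 nt in that of the Elongin partners, both in the length bin where 37.9% of all genes passed as higher and 2.24% as lower. For the silencing effectors the median log2 difference between the sets was 0.50, against 0.06 over all genes. The median was 0.46 for the Elongin partners, 0.44 for the CUL3 adaptors, 0.13 for the ZSWIM genes and 0.11 for the cullin-RING machinery.

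The genes whose pattern over the 6 libraries was most like that of ZSWIM8 were BICDL1, AC006001.2 and SRRM5. Likeness was the root mean square distance between values of log2(FPKM + 1) centred on their mean, which was 0.033 for BICDL1, 0.051 for AC006001.2 and 0.052 for SRRM5, where the pattern of ZSWIM8 itself has a root mean square of 0.22. All 3 are low, at 0.63 to 2.20 FPKM over the libraries, and the choice depended on the pseudocount. With a pseudocount of 0.1, a setting chosen after the data were seen, their distances were 0.135, 0.131 and 0.169, at ranks 131, 110 and 387, and the nearest genes were SCARA3 (0.0503), DGCR11 (0.0574) and PEA15 (0.0642). Among the other members the distance to ZSWIM8 was 0.27 for ELOC, 0.45 for CUL3 and 0.58 for ELOB, and 0.33 to 0.53 for the AGO and TNRC6 genes. Of the subunits of its own ligase ELOC was thus the nearest to ZSWIM8, at a distance above the size of the ZSWIM8 pattern itself.

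The authors' deposited table for the BCL2L11 trigger lists 6 of the 10 genes among 5930, and their deposited table for the TRIM9 trigger lists 6 among 6131. The group on the lower side of the ratio and the method are not named there, but the ratios of the trigger genes were 7540 for BCL2L11 and 3530 for TRIM9 in the authors' deposited tables. For the BCL2L11 trigger the authors' deposited table gives ratios of 3.09 for TNRC6A (p 0.526), 2.40 for TNRC6B (p 0.509), 1.66 for CUL3 (p 0.241), 1.11 for AGO2, 0.848 for ELOC and 0.697 for ELOB. For the TRIM9 trigger the authors' deposited table gives 1.37 for ZSWIM8, 1.26 for TNRC6A, 0.966 for ELOB, 0.962 for CUL3, 0.889 for ELOC and 0.831 for AGO2. Every q-value of these genes in the authors' deposited tables is 1. Against the sums of FPKM used here, all 6 listed members have the opposite direction in the authors' deposited table for the BCL2L11 trigger, and 4 of 6 (ZSWIM8, ELOB, ELOC and TNRC6A) in that for the TRIM9 trigger. None of these values passed in either source.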

How the data were processed

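Poly-A RNA of 6 HEK293T libraries (3 groups, 2 each) was used; the small RNA tables were not used here. The submitters' processing notes list hg38 and the tools cutadapt 3.4, STAR, StringTie 2.1.3 and DESeq2 1.20.0, without roles. Per the file headers the deposited transcript tables hold FPKM and coverage (mean read depth per base, a signal). FPKM was a constant times coverage in each library. The authors' deposited gene tables hold a ratio (fold change) with its log2 value, and with it the p-value and q-value. No source used here says how those were made.

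FPKM was added up over all transcripts with the same gene identifier. The log2 of FPKM + 1 was fitted in limma 3.58.1 (R 4.3.3, trend, group only, all 6 libraries), keeping genes that reached an FPKM of 1 in 2 or more libraries. Fold changes on this scale understate those of low genes. Tests were two-sided, with Benjamini-Hochberg adjustment in each comparison, a threshold of 0.05 and 95% intervals. With 2 libraries on each side an exact permutation test has a lowest p of 0.333 and was not used. Library sets were compared with group as a further term. The fits were tested on simulated data. Same-numbered libraries of different groups deviated together (correlations over genes 0.83, 0.58 and 0.49), a hint from the data that each number marks a shared set; the labels do not state it.

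The 10 genes and the 5 lists (loci on assembled chromosomes) were chosen with earlier results of these data known. Named from a list were genes that passed, up to 4 of lowest p, otherwise up to 2 of lowest p as not passing; not all are printed. The 3 genes nearest to ZSWIM8 and isoforms with a mean share of at least 10% were taken by rule; ENST00000519487.5 was named after its values were seen. Varied in turn were the scaling (trimmed mean of M values, TMM, computed on FPKM), the pseudocount (0.1), the filter (FPKM of 5, or none), the trend, the library set as a block, the groups in the fit and each library left out. Added after the data were seen was the removal of a length trend (lowess, span 0.3).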

Additional observations from a re-analysis of the deposited data

Results flagged for a closer look

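For ZSWIM8 both triggers had one direction against GFP in library set 1 and the opposite one in set 2. Of the other members some changed direction between the sets with 1 of the triggers, but not with both. Within set 1 both trigger libraries were above the GFP library, by 0.51 log2 with the BCL2L11 trigger and 0.41 log2 with the TRIM9 trigger, and within set 2 both were below it, by -0.41 and -0.48 log2. The mean over both triggers was 0.46 log2 in set 1 and -0.45 log2 in set 2, a difference of 0.90 between the sets. Both triggers of a set were compared with the same 1 GFP library, so their agreement is not a second observation. The GFP library was at 7.29 FPKM in set 1 and 12.3 FPKM in set 2, and all trigger libraries lay between, at 8.56 to 10.8 FPKM. The share of all genes with this pattern was not counted, and the difference of 0.90 between the sets was not tested.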

How the results depend on the processing

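In the trigger comparisons no member passed under any setting run (with the FPKM filter of 5, AGO1, AGO3 and AGO4 were not tested), with limma adjusted p values of at least 0.824 for the BCL2L11 trigger, 0.774 for the TRIM9 trigger, 0.719 for both and 0.997 between the triggers. The replicate block (library set as a term, a pairing hinted at by the data only) changed no member's call, and moved the genes passing for the TRIM9 trigger to 6. That count was 4 with only the groups compared, 4 with the length trend removed and 1 to 5 with a library left out. For both triggers it was 0 with no filter and 0 to 4 with a library left out. Estimates near 0 changed sign. TMM scaling gave ZSWIM8 0.028 and AGO1 0.053 (TRIM9 trigger) and, between the sets, ZSWIM8 -0.054 and ELOC -0.136, with the median of all genes at -0.06. A pseudocount of 0.1 gave AGO1 0.008 (TRIM9 trigger) and AGO2 -0.012 (BCL2L11 over TRIM9 trigger). Removing the length trend gave ELOB -0.012 and AGO1 0.012 (BCL2L11 trigger), ZSWIM8 0.039 and AGO1 0.060 (TRIM9 trigger), AGO1 0.036 (both triggers) and, between the sets, ZSWIM8 -0.34, CUL3 -0.10, AGO1 -0.021 and AGO3 -0.21. With a library left out the log2 ranges that crossed 0 were, for the BCL2L11 trigger, ZSWIM8 -0.29 to 0.39, ELOB -0.58 to 0.61, ELOC -0.053 to 0.29, AGO1 -0.50 to 0.23, AGO2 -0.96 to 0.13, AGO4 -0.62 to 0.28, TNRC6A -0.75 to 0.27 and TNRC6B -0.73 to 0.35. For the TRIM9 trigger they were ZSWIM8 -0.38 to 0.31, ELOB -0.32 to 0.59, AGO1 -0.36 to 0.35, AGO3 -0.48 to 0.14, AGO4 -0.54 to 0.36, TNRC6A -0.85 to 0.21 and TNRC6B -0.86 to 0.17. For both triggers they were ZSWIM8 -0.33 to 0.35, ELOB -0.38 to 0.53, AGO1 -0.42 to 0.29, AGO4 -0.58 to 0.32, TNRC6A -0.79 to 0.23 and TNRC6B -0.79 to 0.25. Between the triggers they were ZSWIM8 -0.035 to 0.21, CUL3 -0.29 to 0.49, ELOB -0.72 to 0.47, AGO1 -0.50 to 0.23, AGO2 -0.54 to 0.55, AGO3 -0.41 to 0.21, AGO4 -0.51 to 0.36, TNRC6A -0.46 to 0.61 and TNRC6B -0.38 to 0.70. Between the sets they were ZSWIM8 -0.22 to 0.24 and ELOC -0.16 to 0.27. Ranges that did not cross 0 were also wide, with CUL3 -0.57 to -0.17 and AGO3 -0.49 to -0.06 for the BCL2L11 trigger, CUL3 -0.86 to -0.08, ELOC 0.16 to 0.67 and AGO2 -0.81 to -0.01 for the TRIM9 trigger and CUL3 -0.62 to -0.23, ELOC 0.10 to 0.44, AGO2 -0.81 to -0.01 and AGO3 -0.44 to -0.01 for both. Members passing between the sets numbered 4 to 8 with a library left out, 0 with no filter and 1 with the length trend removed, and genes passing numbered 1265 to 8178, 0 and 2701. In the trigger comparisons the fits with a library left out had no term for the library set, so the sets were uneven between the groups. The cause of these shifts was not tested, beyond the larger number of genes tested with no filter. No counts were used, so depth is known as coverage only.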
